A study of Mus musculus with 4 samples.

Results

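Potassium channel genes were examined in a genome-wide list of H3K27ac HiChIP interactions from the series on YAP fusion tumors. The members are the autosomal protein-coding genes of mm10 whose symbol starts with Kcn, 92 of 20665 coding genes. The choice used symbols only and no measured value, and left out 2 genes on chromosome X, Kcnd1 and Kcne1l. HiChIP recovers pairs of DNA regions that are neighbours in folded chromatin, after enrichment with an antibody, here against acetylated histone H3, a mark of active promoters and enhancers. The labels describe 2 libraries of brain tumor with the YAP-M fusion genotype and 2 libraries of wild-type neural progenitor cells of mouse brain, grown as stem cells with EGF and FGF. All 4 were made with the H3K27ac antibody. Their titles read H3K27ac ChIP-seq, and the list of paired bins is taken here as HiChIP. The name of the deposited list carries the letters YM, read here as the YAP-M tumor, and no column ties an interaction to a library. The labels give no age or strain of the animals and no promoter for the fusion. The 1 list gives neither a comparison with the neural progenitor cells nor a replicate error.

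Potassium channels let potassium ions leave or enter cells and set the resting voltage of the membrane. Voltage-gated subunits open on depolarisation and end action potentials, inward rectifiers and tandem-pore-domain channels hold the resting voltage, and calcium-activated channels link calcium to excitability. Auxiliary proteins change the gating or surface level of the pore-forming subunits. In brain, neurons use many of these genes, and astrocytes take up extracellular potassium through inward rectifiers.

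The list held 99041 interactions between bins of 10 kb that were 20 to 1000 kb apart, without a read count or score, so sequencing depth is unknown. An interaction was assigned to a gene when either bin overlapped 2.5 kb around either end of the gene. The background was 65.7% of coding genes connected, at a median of 2 interactions. Of the short marker lists, the neural stem cell and glia genes were connected at 7 of 7 (exact 95% interval 59.0 to 100%), with a median of 9 interactions, and the neuron genes at 3 of 5 (14.7 to 94.7%), with a median of 1. Both intervals held the share of all coding genes. The 4 microglia genes (median 2.5), 3 of 3 endothelial genes (median 7) and 3 of 3 pericyte genes (median 1) all had one. Tubb3 and Syt1 were the neuron markers with 0 at their ends. The tissue was taken in bulk, so a contact in few cells and a weak contact in many cells cannot be told apart. A gene with 0 interactions was not detected in this list at its unknown depth, and was not shown to lack contacts.

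The promoters of the 3 members with the most interactions whose start lies in a listed bin are shown, and they differ in base composition. They come from RefSeq (GRCm38.p6, the assembly of mm10), run 5′ to 3′ on the strand of the gene from 250 bases before to 50 bases after the annotated start, and have each CG dinucleotide in capitals.
Kcnj2, chr11:111065914-111066213, plus strand: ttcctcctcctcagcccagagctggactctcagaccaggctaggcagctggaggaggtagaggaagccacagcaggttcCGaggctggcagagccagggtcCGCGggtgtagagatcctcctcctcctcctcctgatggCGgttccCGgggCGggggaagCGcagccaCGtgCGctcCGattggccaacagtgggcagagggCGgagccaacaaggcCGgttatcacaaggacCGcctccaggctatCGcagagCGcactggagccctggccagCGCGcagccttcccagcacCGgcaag
Kcnma1, chr14:24004156-24004455, minus strand: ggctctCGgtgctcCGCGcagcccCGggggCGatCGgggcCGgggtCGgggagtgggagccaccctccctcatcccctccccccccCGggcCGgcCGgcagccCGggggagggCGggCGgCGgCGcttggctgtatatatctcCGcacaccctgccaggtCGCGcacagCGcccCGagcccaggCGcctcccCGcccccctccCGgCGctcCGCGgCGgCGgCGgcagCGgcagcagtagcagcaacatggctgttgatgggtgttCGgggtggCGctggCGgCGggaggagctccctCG
Kcnj9, chr1:172329273-172329572, minus strand: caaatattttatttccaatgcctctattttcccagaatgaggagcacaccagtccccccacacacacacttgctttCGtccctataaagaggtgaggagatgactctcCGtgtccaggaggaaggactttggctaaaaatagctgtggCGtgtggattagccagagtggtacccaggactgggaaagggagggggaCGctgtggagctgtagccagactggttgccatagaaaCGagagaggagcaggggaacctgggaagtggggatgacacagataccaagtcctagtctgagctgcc
The Kcnma1 promoter held 36 CG dinucleotides and 78.0% G and C, the Kcnj2 promoter 18 and 66.7%, and the Kcnj9 promoter 5 and 52.3%. Bins at these starts took part in 29, 30 and 7 interactions, respectively. Of the 3 motifs searched on both strands, GGAATG of TEAD factors, TGANTCA of AP-1 and TATAAA, no letters matched at Kcnj2 or Kcnma1, and Kcnj9 held TATAAA 1 time, starting at base 83 of the printed sequence. No motif contains another. They stood in 13.4%, 7.06% and 12.7% of all 20085 coding-gene promoters and in 14%, 4.3% and 5.38% of the 93 promoters of members.

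Taken as a set, members were connected as often as other coding genes. Of 92, 61 had an interaction (66.3%, exact Clopper-Pearson 95% interval 55.7 to 75.8%), and 65.7% of all coding genes did. The median was 2 interactions per gene in both, with an upper quartile of 6 for members and 7 for all genes. With 10 or more interactions there were 14 members (15.2%), against 17.1% of all coding genes. Intervals cover counting error only, and they are too narrow where neighbouring genes share interactions. All coding genes, weighted to the span and neighbourhood classes of the members, gave 67.4%. Within classes of span, 14 of 20 members under 10 kb had an interaction (70%, interval 45.7 to 88.1%), against 50.5% of coding genes of that span. Of the members over 200 kb, 11 of 18 did (61.1%, interval 35.7 to 82.7%), against 69%. Both background shares lay inside the interval of the members.

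Differences between role classes were also within counting error. An interaction was present at 26 of 39 voltage-gated subunit genes (66.7%, interval 49.8 to 80.9%), 6 of 8 calcium- or sodium-activated channel genes (75%, 34.9 to 96.8%), 9 of 15 inward rectifier genes (60%, 32.3 to 83.7%), 8 of 14 tandem-pore-domain genes (57.1%, 28.9 to 82.3%) and 12 of 16 auxiliary genes (75%, 47.6 to 92.7%). The 5 intervals overlapped and each held the background of 65.7%. Medians were 2, 5, 2, 1 and 2.5 interactions per gene in the same order. No test was run, since genes of 1 list are not replicates.

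**Figure D1:**
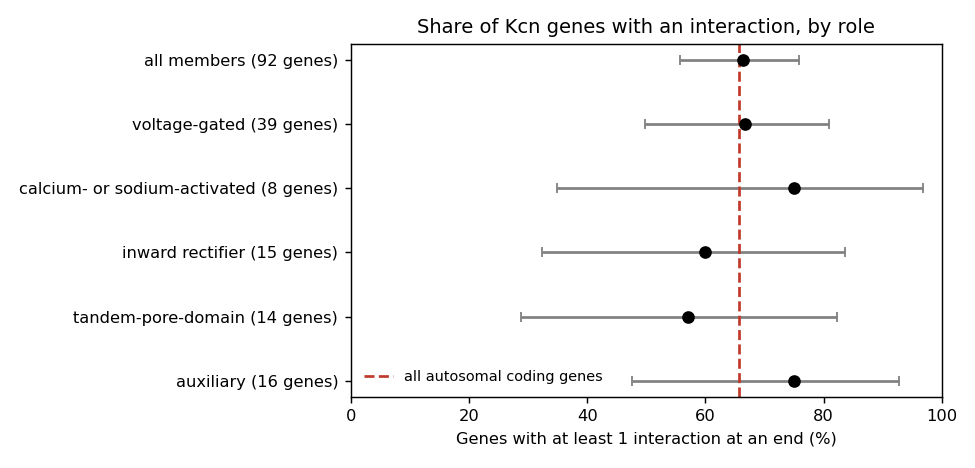
Share of genes with at least 1 interaction at an end (x axis, percent) for all members and 5 role classes (y axis); points are shares, bars are exact 95% intervals and the dashed line is the share of all autosomal coding genes. The 65.7% of all coding genes lies inside every interval.

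Interactions were spread over members as unevenly as over coding genes. The 10 most connected members (10.9%) held 47.6% of the 399 interactions summed over members, and the same share of all coding genes held 46.6%. There were 34 members with 1 to 4 and 31 with 0. Those 399 counts were 391 distinct interactions, because some touched ends of several members. Many of them were neighbouring calls: merged where both bins lay within 1 bin of each other, they formed 178 contacts. That is 2.20 interactions per contact, beside 3.10 over all coding-gene ends (60738 interactions in 19610 contacts). These ratios cannot be compared, because only calls at the counted ends enter, and a larger set of ends takes in more calls of the same contact. Of the 14 members with 10 or more interactions, 6 shared no end bin with another coding gene: Kcnj2, Kcnma1, Kcnq5, Kcna2, Kcng3 and Kcnk13. The other 8 had interactions in shared bins, which cannot be told apart from those of the other gene there. Of the 399 counts, 161 (40.4%) were in such bins. Over all members 34 of 92 (37.0%) shared an end bin, against 61.2% of coding genes.

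**Figure D2:**
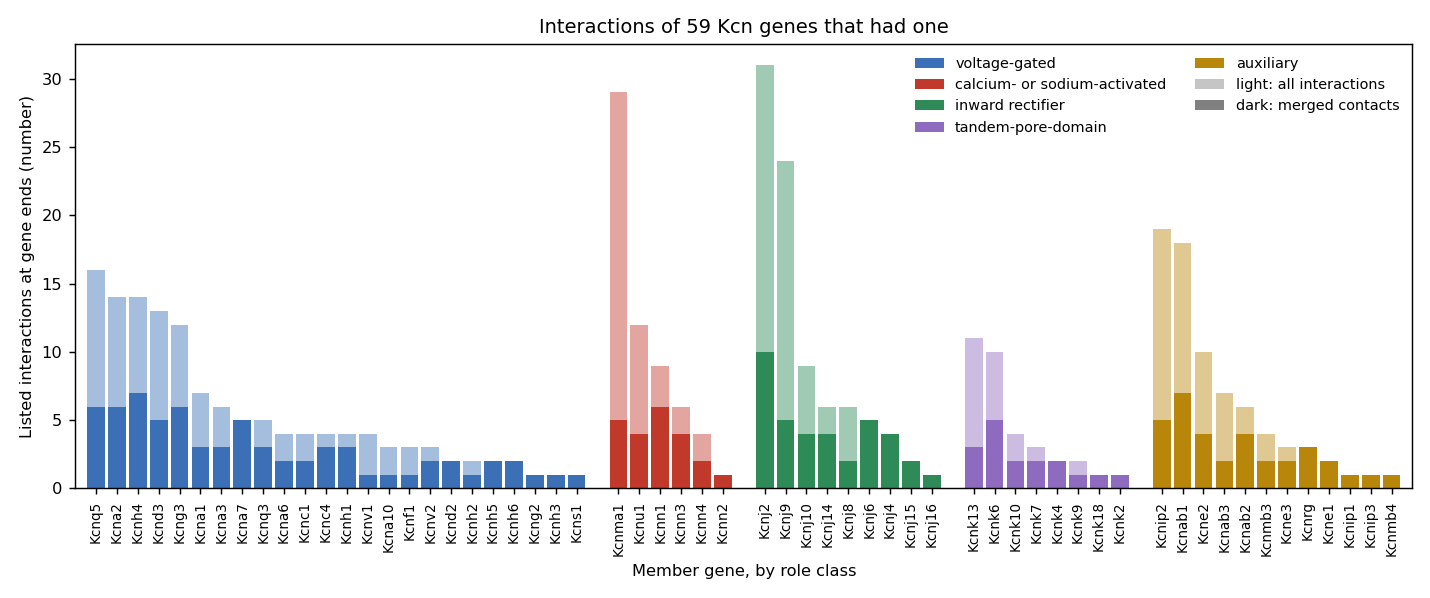
Interactions at the ends (y axis, number) of 59 of the 61 members that had at least 1 (x axis, grouped by role); light bars count every listed interaction and dark bars count contacts after merging of adjacent interactions. Kcnj2 with 31 and Kcnma1 with 29 stand highest, and fall to 10 and 5 after merging.

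Among inward rectifiers, Kcnj2 on chromosome 11 (111066164 to 111076825) had the most interactions of any member, 31. It ranked 249 among all coding genes. It encodes a strong inward rectifier of muscle and brain. The start end carried 30 of them and the other end 1. Partners lay on both sides, 15 lower and 16 higher, and none was nearer than 130 kb. On the lower side, 11 consecutive bins from 480 to 580 kb were all partners of the start bin. On the higher side its partners reached 470 kb. Of the 31, 26 led to bins between coding genes, 4 to bins inside genes, and 1 to an end of Map2k6, a stress kinase gene. The locus is sparse: 1 other coding gene, Kcnj16, lay within 500 kb.

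Kcnj16, another inward rectifier gene of brain and kidney, lies 38.2 kb from Kcnj2 (110968033 to 111027968). It had 1 interaction at its ends, of 500 kb. Another 7 touched a bin inside the gene (110990001 to 111000000), which lies at an annotated internal start at 110997487, and all 7 led to lower coordinates, at a median of 420 kb. Of the 7 partner bins of Kcnj16 outside the gene, 5 were also partners of Kcnj2, which had 30. No interaction joined the 2 genes.

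Kcnj9 and Kcnj10 are neighbours on chromosome 1, 11.9 kb apart, and share a bin. Kcnj9 encodes a G-protein-gated subunit of neurons, and Kcnj10 the main potassium-buffering channel of astrocytes. Kcnj9 (172320508 to 172329322) had 24 interactions, 22 of them at the end opposite its start, in bins that also hold an end of Igsf8, and 2 in the bin shared with Kcnj10. Of the 24, 23 led to lower coordinates, with 5 each at ends of Copa and Dcaf8 and 4 at Pex19. Only 5 were left when the bin had to hold the gene end itself, and 17 touched the next lower bin. Kcnj10 (172341210 to 172374085) had 9, all with bins at ends of other coding genes, among them 5 at Dcaf8 and 3 at Copa. Of these 9, 5 were in bins shared with Pigm and 2 in the bin shared with Kcnj9. A further 6 touched only the inside of Kcnj10. Of the partner bins, 18 for Kcnj9 and 7 for Kcnj10, 5 were common to both genes. The 2 interactions of the shared bin count for both, so part of this overlap follows from the counting.

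The other inward rectifier genes had 0 to 6. Kcnj8, which encodes the pore of the ATP-sensitive channel of vascular cells, had 6 interactions at 140 to 190 kb, all to higher coordinates and 2 of them at an end of Cmas. Kcnj14 had 6 in a bin shared with Cyth2. Kcnj6 had 5, Kcnj4 had 4 and Kcnj15 had 2. The genes with 0 at their ends were Kcnj1, Kcnj3, Kcnj5, Kcnj11, Kcnj12 and Kcnj13. Kcnj12 had 3 inside the gene. Kcnj11, the pore of the pancreatic ATP-sensitive channel, shares a bin with its partner subunit gene Abcc8, and both had 0. Abcc9, the usual partner subunit gene of Kcnj8, had 0.

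Kcnma1 led the calcium-activated class. It encodes the pore of the large-conductance BK channel and spans 713 kb on chromosome 14 (23292288 to 24005110). Its 29 interactions all started from the bin of its start end, and the other end had 0. All 29 partners lay inside the gene itself, 90 to 430 kb downstream of the start, and 12 consecutive bins from 150 to 260 kb were partners. None of them held an end of another coding gene. Merged, they formed 5 contacts. Another 5 interactions joined bins inside the gene without touching its ends.

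All 4 SK-type genes had interactions (interval 39.8 to 100%, which holds the 65.7% of all coding genes). Kcnn1 had 9, Kcnn3 had 6, Kcnn4 had 4 and Kcnn2 had 1. Their channels open with calcium and underlie afterhyperpolarisation in neurons, whereas Kcnn4 is the intermediate-conductance channel of blood and epithelial cells. The count of Kcnn1 rose to 18 with a window of 5 kb, and all 9 lay in bins that also held ends of Arrdc2 or Ccdc124. At Kcnn3, 5 of the 6 were at its start end. Kcnu1, which encodes a sperm channel related to BK, had 12, but in a bin shared with Ash2l. Partners of Kcnu1 included ends of Hook3 (4 interactions) and Fnta (3). The sodium-activated genes Kcnt1 and Kcnt2 had 0 at their ends. Kcnt2 had 22 inside the gene, 20 of which led to lower coordinates, and no end of another coding gene was among their bins.

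In the voltage-gated class, Kcnq5 had the highest count. It encodes a subunit of the neuronal M-current. It spans 564 kb on chromosome 1 (21398399 to 21962650) and had 16 interactions, all touching its start bin, at 290 to 570 kb. Of these, 12 led into the gene body, 2 joined both ends of the gene, and 2 led upstream. Kcnq3, its relative in the same current, had 5, all with bins within Kcnq3. Kcnq5 and Kcnma1 thus shared a layout, contacts from the start bin into their own long gene bodies. That layout was common among long genes: for coding genes over 200 kb, 50% of interactions at the ends led inside the same gene, against 63.5% for the 18 members of that span, and 47.8% for the 17 other than Kcnma1.

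Kcnq1, an epithelial and cardiac channel gene in an imprinted cluster, had 0 interactions at its ends and 30 inside its 320 kb (chromosome 7, 143106877 to 143427050). Of these, 22 left the gene toward higher coordinates and 8 stayed within it. Bins at an end of Cdkn1c, the imprinted cell cycle inhibitor gene of the same cluster, took part in 14, and bins at Slc22a18 in 2. The antisense RNA gene Kcnq1ot1 lies inside Kcnq1 and was not scored. The busiest bin inside the gene (143180001 to 143190000) had 8. With a window of 5 kb the ends of Kcnq1 had 2.

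The Kcna genes lie in clusters, and the interactions that joined ends of 2 members were found there. Kcna subunits form the delayed rectifiers of axons and, for Kcna3, of lymphocytes and microglia. On chromosome 3, Kcna2 (107090883 to 107115005) had 14 interactions, all at its start end, Kcna3 had 6 and Kcna10 had 3. The annotated start of Kcna2 in the promoter table lies inside the gene, at 107101567, with 8 interactions. Kcna2 was joined to Kcna3 by 2 interactions of 40 to 50 kb and to Kcna10 by 2 of 90 to 100 kb. On chromosome 6, Kcna1 had 7, Kcna6 had 4 and Kcna5 had 0, with 2 interactions of 60 to 70 kb between Kcna1 and Kcna6. In all, 6 interactions joined ends in 3 of the 21 pairs of members within 500 kb of each other. Counted over whole genes there were 8, 1 of them from an end bin of Kcnj9 to a bin inside Kcnj10. Among these pairs were Kcnj5 and Kcnj1, and Kcnk5 and Kcnk16, whose 4 genes had 0 at their ends. The share joined among all pairs of coding genes within 500 kb was not computed, so these counts do not set the Kcna clusters apart. Outside the clusters, Kcna7 had 5, all with bins at ends of other coding genes, and Kcna4 had 0. With a window of 0 kb Kcna2 had 5.

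Kcnh4, an ether-a-go-go type gene on chromosome 11 (100740378 to 100760115), had 14, and every partner bin held an end of another coding gene. Among them were Stat3, Kat2a and Cavin1 with 3 interactions each. Its bins also held ends of Ghdc, Hcrt and Rab5c in a region with 43 other coding genes within 500 kb. Kcnd3, an A-type channel gene, had 13, all toward higher coordinates. Of these, 6 were at its start end and led into the gene, and 7 were at the other end, in the bin that also holds an end of Ddx20. Its relative Kcnd2 had 2, both within its 514 kb. Kcng3, an electrically silent subunit gene, had 12, of which 4 met an end of Haao and 2 an end of Mta3. Over the 10 silent subunit genes (Kcnf, Kcng, Kcns and Kcnv) 6 had an interaction (60%, interval 26.2 to 87.8%, beside 65.7% of coding genes).

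Other voltage-gated genes were sparsely connected. Kcnb2, a delayed rectifier gene, had 0. Of the fast-spiking Kcnc genes, Kcnc1 and Kcnc4 had 4 each, 3 of the latter in a bin shared with Slc6a17, while Kcnc2 had 0 at its ends and 10 inside. Kcnh1 had 4, all at its start end, and none was left with a window of 0 kb. Kcnh2, the cardiac repolarisation channel gene, had 2. Kcnh5 and Kcnh6 had 2 and Kcnh3 had 1. Kcnh7 and Kcnh8 had 0 at their ends, with 17 and 8 inside, and 2 of those in Kcnh7 met an end of Ifih1. Kcnv1 had 4, Kcnv2 and Kcnf1 had 3, and Kcng2 and Kcns1 had 1. Also without one at their ends were Kcng1, Kcng4, Kcns2 and Kcns3.

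Tandem-pore-domain genes, which encode leak channels, had the lowest median. Kcnk13 (chromosome 12, 99963149 to 100062682) had 11, of which 10 were at its start end, and 32 over its whole span. Of the 21 that touched only the inside, 17 led to higher coordinates and 6 met an end of Psmc1, a proteasome subunit gene. The 2 longest at the start end reached 870 and 880 kb, the longest at the ends of any member. Kcnk6 had 10, of which 9 were in bins shared with Catsperg1 or Yif1b. Those 10 included 3 with Rasgrp4 and 2 with Zfp36. Kcnk10 had 4, Kcnk7 had 3, Kcnk4 and Kcnk9 had 2, and Kcnk2 and Kcnk18 had 1. Kcnk1, Kcnk3, Kcnk5, Kcnk12, Kcnk15 and Kcnk16 had 0 at their ends and inside.

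Of the auxiliary genes, Kcnip2, a calcium-binding partner of A-type channels, had 19 (chromosome 19, 45792346 to 45816422), of which 15 were in bins shared with Armh3 or Oga. Of the 19, 17 led to higher coordinates, with 6 at an end of Armh3, 4 at an end of Ldb1, a transcription cofactor gene, and 3 at Hps6. The partner bin at Hps6 also held an end of Armh3. Kcnip1 and Kcnip3 had 1 and Kcnip4 had 0. Kcne2, a small membrane subunit, had 10, among them 3 with the bins of Atp5o and 3 with those of Mrps6 and Slc5a3. Of the 10, 7 were in bins shared with Smim11, and 1 was left with a window of 0 kb. Kcne3 had 3, Kcne1 had 2 and Kcne4 had 0. The beta subunits Kcnab3 and Kcnab2 had 7 and 6, of which 6 each were in bins shared with Cntrob and Trappc1 and with Nphp4. All 6 of Kcnab2 were at its start end. Of the BK beta subunits, Kcnmb3 had 4 in bins shared with Pik3ca and Zfp639, Kcnmb4 had 1, and Kcnmb1 and Kcnmb2 had 0. Kcnrg, which regulates channel assembly, had 3 in bins shared with Trim13.

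Kcnab1 had the most interactions of any member when the whole gene was counted. It encodes a beta subunit that inactivates Kcna channels and spans 429 kb on chromosome 3 (64949212 to 65378225). The start end had 0, and the other end had 18, in bins shared with Ssr3. Another 74 touched only the inside, of which 39 stayed within the gene and 35 led to higher coordinates, reaching 930 kb. The busiest inner bin (65130001 to 65140000) had 16, and none of the 74 lay at an annotated start of the gene. Ends of Ccnl1, a cyclin gene, were met by 5 of them and by 3 of the end interactions. With a window of 0 kb the ends had 7.

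**Figure D3:**
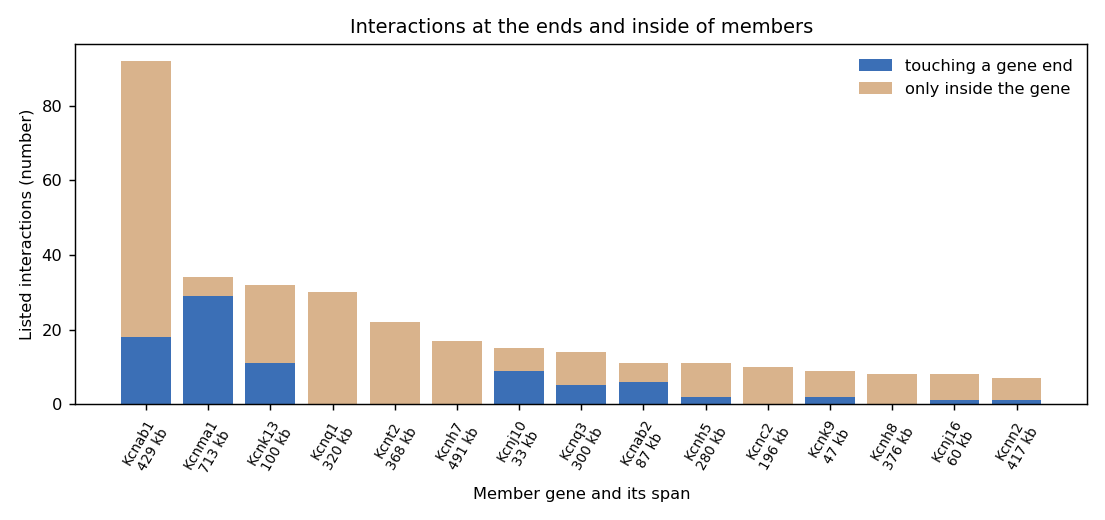
Interactions of the 15 members with 5 or more that touch only the inside of the gene (x axis, with gene span); blue parts of bars touch a gene end and brown parts only the inside (y axis, number). Kcnab1 stands highest with 92 in all, and Kcnq1, Kcnt2, Kcnh7, Kcnc2 and Kcnh8 have no blue part.

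Counting over the whole span, 67 of 92 members (72.8%) had an interaction, against 67.8% of coding genes, and the median was 4 against 3. Members were longer, with a median span of 34.5 kb against 17.5 kb. Of the 31 members with 0 at their ends, 6 had interactions inside, namely Kcnq1, Kcnt2, Kcnh7, Kcnc2, Kcnh8 and Kcnj12. Among all coding genes with 0 at the ends the share was 6.18%. The part of gene span in that difference was not tested.

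The strand was known for 68 members. An interaction was present at the start end of 40 (58.8%, against 59.3% of all coding genes with a strand) and at the other end of 30 (44.1%, against 45%). Summed over these members, start ends had 231 interactions and other ends 127, against 58667 and 35711 over all coding genes. The start end had more at 27 members and the other end at 14, against 6394 and 2839 coding genes. Where the ends lay in separate bins, 32 of 56 members had an interaction at the start end (57.1%, against 65.5% of such coding genes). Kcnj9 and Kcnab1 were the largest exceptions, with 22 and 18 at the other end, in both cases in bins shared with other genes. Annotated starts of members with an interaction had a median of 13 CG dinucleotides in the 300-base promoter (51 promoters), against 7 at starts without (42 promoters). For all coding genes the medians were 19 and 5. Promoters of 1 gene overlap or lie in 1 bin, so these are descriptions.

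Distances and places of partners were set beside those of all coding genes, without a test. The median distance was 190 kb (quartiles 110 and 290), against 170 kb (100 and 290) over all pairs of a coding gene and its interactions. Partners at an end of another coding gene made up 42.4% against 47.9%, and those between coding genes 27.8% against 25.3%. Partners inside the same gene made up 18.5% against 6.04%, but 12.2% without Kcnma1. Partners inside another coding gene made up 9.77% against 19.7%. Of the 42 members with 3 or more interactions, 19 had all partners on 1 side (45.2%, against 43.2% of such coding genes). At 22 of the 61 connected members no partner bin held an end of another coding gene (36.1%, against 14.7% of connected coding genes). At 9, among them Kcnj10 and Kcnh4, every partner bin did (14.8%, against 26.4%). Members also had fewer neighbours, with a median of 11 other coding genes within 500 kb against 17, and the part of that in these shares was not tested.

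**Figure D4:**
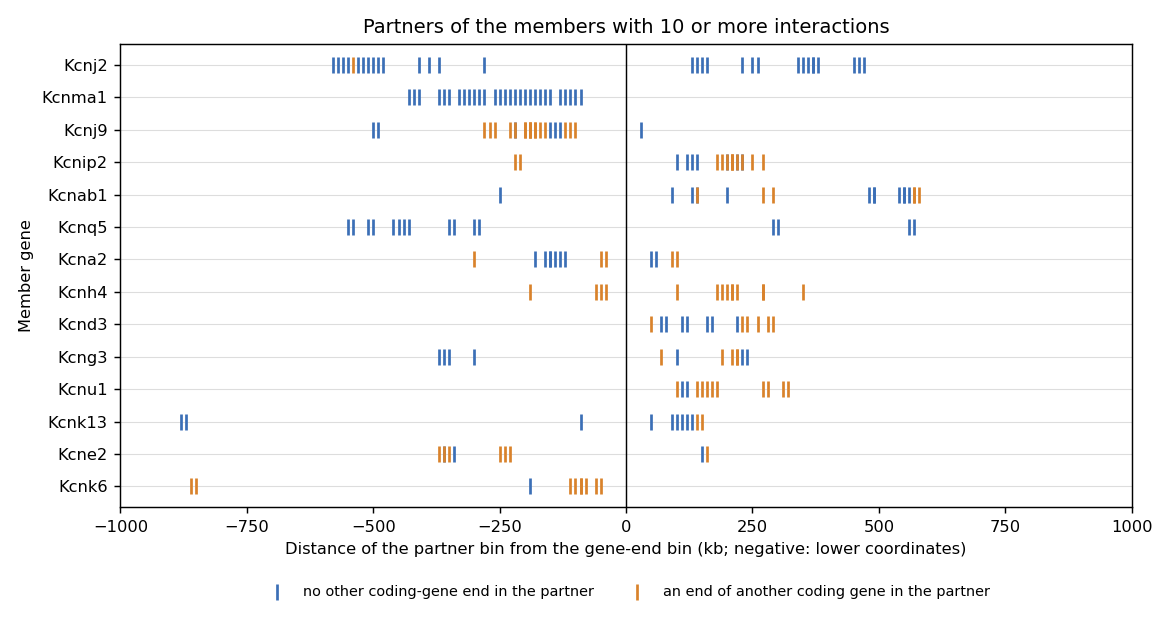
Distance of each partner bin from the gene-end bin (x axis, kb, negative toward lower coordinates) for the 14 members with 10 or more interactions (y axis); orange marks are partners with an end of another coding gene and blue marks are the others. All 29 partners of Kcnma1 are on the lower side, whereas Kcnj2 has 15 lower and 16 higher.

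Genes that work with potassium channels or move potassium were listed separately. Of 34, 19 had an interaction (55.9%, interval 37.9 to 72.8%, beside 65.7% of coding genes), with a median of 1. The sodium-potassium pump gene Atp1b1 had 27. The gap junction gene Gja1 had 21, and the cotransporter gene Slc12a2 had 13. Of the genes for partner proteins of A-type and BK channels, Dpp6, Dpp10, Lrrc26, Lrrc38 and Lrrc55 had 0 at their ends, and Lrrc52 had 5. Rest, a repressor of neuronal genes, had 3.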

How the data were processed

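The data were 1 deposited list of interaction positions (chromosome, start and end of 2 bins, per the file header), without a count or score. How the authors called interactions, at which threshold and on which libraries, is not stated in the labels or the header; BWA and mm10 are named per the submitters' processing notes. Genes came from RefSeq (GRCm38.p6), and strand and promoters, matched by gene ID for 68 of 92 members, from the RefSeq promoter table. A bin was at a gene end if it overlapped 2.5 kb to either side. Counting was done with Python 3.11.15 (pandas 2.3.3, scipy 1.17.1) and tested on simulated data. Merging joined interactions whose bins lay within 1 bin at both sides, in chains. Described singly are the 3 most connected members of each of 5 role classes, those with 10 or more, and 25 set by symbol; other members are given by count. The members and lists were chosen with earlier results of these data known. Alternatives are in the closing section. A few genes are counted in the totals but not reported singly here.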

Additional observations from a re-analysis of the deposited data

How the results depend on the processing

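No paired analysis was possible because the interactions carry no library label, and leaving out a replicate could not be run for the same reason. The share of members with an interaction was 44.1% at the other end alone, 40% for voltage-gated and 35.7% for auxiliary genes, outside the interval of the value at both ends; all other class shares stayed inside theirs. The median per member was 4 over the whole span, 0 at the other end, and 1 at the start end, after merging, for members alone in their bins and for interactions of at least 100 kb. Over all coding genes the median was 3 over the whole span, 0 at the other end and 1 in each of the other settings just named. Interactions joining members numbered 2 with a window of 0 kb, 3 at start ends, 0 at other ends, 3 after merging and 1 at 100 kb or more. The cause was not tested where fewer ends or interactions counted do not show it. Of 38 genes described singly, the count moved by more than 1.5 times for 23 after merging, 12 with 0 kb, 3 with 5 kb and 11 over the span. It moved as much for 7 with interactions of at least 100 kb. Of the 29 with a known strand, 22 moved at the other end alone and 9 at the start end alone. Depth is unknown.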

Other observations

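Other ion channel families stood near or below the potassium channel genes in this list, without a test. Voltage-gated sodium channel genes (Scn) had an interaction at 9 of 14 (64.3%, exact 95% interval 35.1 to 87.2%) with a median of 1.5, and calcium channel genes (Cacn) at 17 of 25 (68%, 46.5 to 85.1%) with a median of 2. Cacnb1 and Cacnb4 had 12 and 11. Glutamate receptor genes had one at 13 of 25 (52%, 31.3 to 72.2%) with a median of 1, led by Grik4 with 17, and GABA-A receptor genes at 7 of 16 (43.8%, 19.8 to 70.1%) with a median of 0 and a highest count of 3. All 4 intervals held the 65.7% of coding genes. The highest counts at gene ends in these lists were below those of Kcnj2, Kcnma1 and Kcnj9. Each list is shorter than the 92 members, so a lower maximum does not set the members apart. The 24 interactions of Kcnj9 were all in shared bins.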
